A study of Mus musculus with 6 samples.

Results

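The SLC25 genes encode the mitochondrial carrier family, and 41 of the 16205 rows of the deposited expression table were chosen because their gene symbol starts with Slc25a. Membership was set by the symbol alone, but the family was chosen with earlier results of these data known. Of these 41 genes, 40 reached a mean of 1 across all 6 libraries and were tested among 14025 genes. The gene left untested was Slc25a31, a testis-enriched ADP/ATP carrier, listed at 1.14, 0 and 0.998 in the libraries labelled knockdown and at 0, 0 and 0.905 in wild type. A further 7 family symbols looked for (Slc25a2, Slc25a18, Slc25a21, Slc25a41, Slc25a48, Slc25a52 and Slc25a54) are not analysed here.

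Carriers of this family sit mostly in the inner mitochondrial membrane, which is otherwise closed to charged metabolites. Each carrier exchanges or imports a small set of compounds, among them ADP and ATP, phosphate, amino acids, acylcarnitines, iron and cofactors. In heart muscle, where most ATP comes from mitochondria, the ADP/ATP and phosphate carriers are among the abundant mitochondrial proteins.

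The libraries came from infarcted mouse myocardium collected 7 days after the left anterior descending coronary artery had been tied off. One group of 3 libraries is labelled ITIH5 knockdown and the other group of 3 is labelled wild type, and ligation is shared by both. Itih5 encodes a secreted heavy chain that binds hyaluronan, and the title of the study concerns its part in exchange between fibroblasts and macrophages after infarction. How the knockdown was made, and which cells it reached, is not given in the sources used here, and no label ties the replicates to separate animals. The p-values thus rest on these particular libraries only, and the spread among them may be technical. In the limma test, the spread of each gene is also drawn toward that of genes of similar level.

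Some facts of the whole series bear on every value below. Itih5 itself was at 18.4, 10.5 and 19.96 in the libraries labelled knockdown, against 9.73, 13.1 and 17.2 in wild type (fitted log2 difference 0.26, SE 0.27, limma adjusted p = 0.645), so the labels are used here as labels only. The values are close to TPM, a length-corrected share of the transcripts, after an adjustment between libraries that the sources used here do not state. Low values, from 0.5 to 3.5 steps, lay mostly near whole multiples of a step that differed between libraries, from 0.889 to 1.163, with 97.3% to 100% of them within 0.15 of a whole step. Labelled knockdown replicate 1 also held 1077 values above 0 and below 0.2, and the other libraries held 0. In units of its own step, each column added up to a total from 996821 to 1013977. Low genes are therefore resolved only coarsely, and how many reads a step stands for is unknown. The library labelled knockdown replicate 1 stood apart. Heart muscle markers (12 of 12 in the table, none at 0) summed to 28060, 13510 and 8157 in the libraries labelled knockdown, against 9556, 9298 and 7895 in wild type. Mitochondrially encoded genes took 32.6%, 14.8% and 20.2% of the column sum in the libraries labelled knockdown, against 13.8%, 11.5% and 10.9% in wild type. In bulk tissue, fewer cells of a type and less RNA per cell cannot be told apart.

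Means over the 6 libraries ran from 2.13 for Slc25a53 to 868 for Slc25a4 among the tested members, and a few carriers made up most of the summed value. Slc25a4 was followed by Slc25a5 at 347, Slc25a3 at 251, Slc25a11 at 115 and Slc25a39 at 101. These 5 genes held 81.3%, 72.3% and 69.2% of the summed SLC25 value in the libraries labelled knockdown, against 73.7%, 71.5% and 71.0% in wild type. A further 10 members had a mean from 20 to 100, 19 from 5 to 20 and 7 under 5. The summed value was 3338, 2177 and 1901 in the libraries labelled knockdown, against 2170, 2058 and 2008 in wild type. The groups overlapped, with labelled knockdown replicate 1 far above the rest and replicate 3 of that group the lowest of all. The means were 2472 ± 762 (SD, n = 3) in the libraries labelled knockdown and 2079 ± 82.9 (SD, n = 3) in wild type, with p = 0.6 by an exact two-sided permutation test, whose smallest possible p with 3 against 3 libraries is 0.1. Without labelled knockdown replicate 1 the log2 ratio of the summed means was -0.028, against 0.25 with it.

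**Figure D1:**
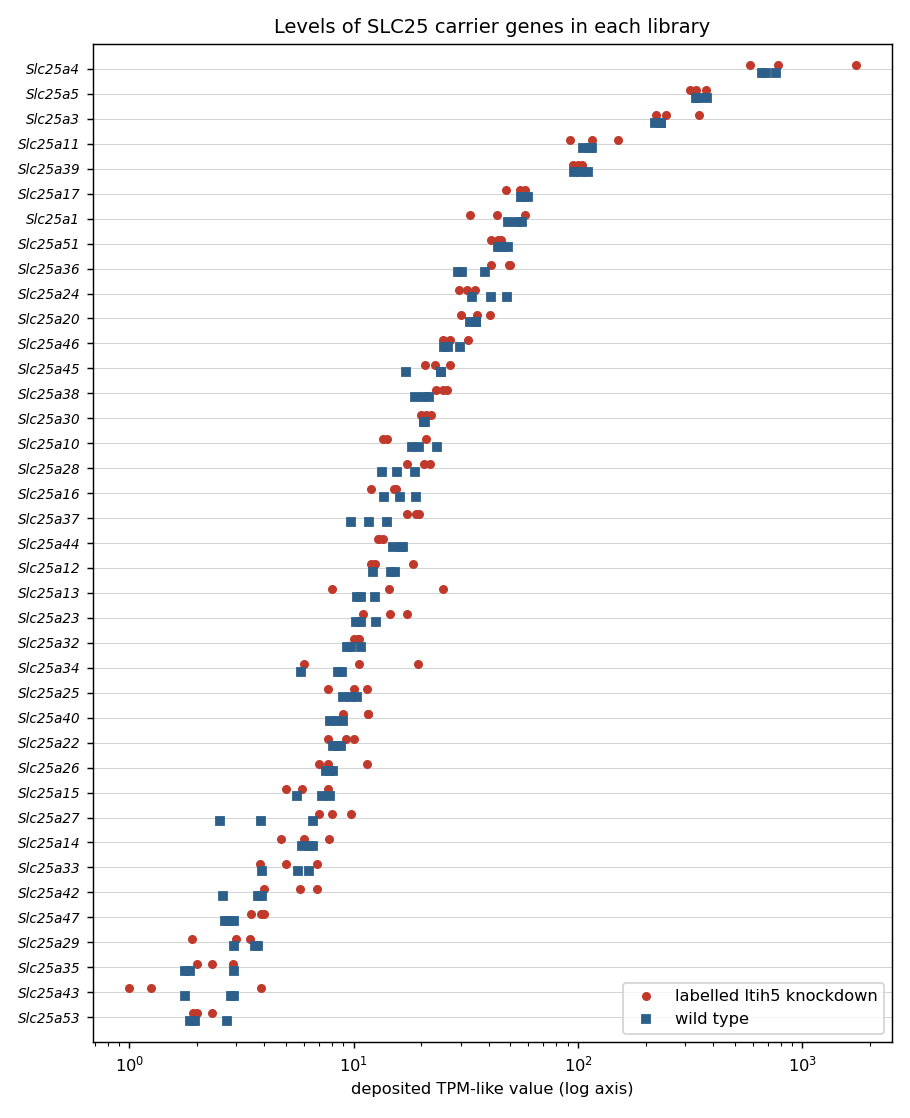
Deposited TPM-like value (log axis) of the tested SLC25 genes shown, sorted by mean; each circle is a library labelled Itih5 knockdown and each square a wild-type library. Single values run from 0.997 for Slc25a43 to 1737 for Slc25a4 in labelled knockdown replicate 1, and for most genes the groups overlap.

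No member passed the test. With limma, 0 of 40 members had an adjusted p under 0.05, as did 0 of the 14025 genes (0.0%), and the smallest adjusted p was 0.296 both among the members and over all genes. At an unadjusted p under 0.05 there were 9 members (22.5%), against 14.8% of all genes. Of these, 7 were higher in the libraries labelled knockdown (17.5% of members, 8.29% of all genes) and 2 were lower (5.0% of members, 6.55% of all genes). Groups did not overlap for 8 of the 40 members, against 22.4% of all genes; 7 of these were higher, against 12.6% of all genes, and 1 was lower, against 9.88%. A positive difference was found for 24 of the 40 members, against 50.8% of all genes. The 40 members had a median log2 difference of 0.045, labelled knockdown minus wild type, against 0.005 for all genes, and their median absolute difference was 0.18, as for all genes (0.18). The genes below are given as values.

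**Figure D2:**
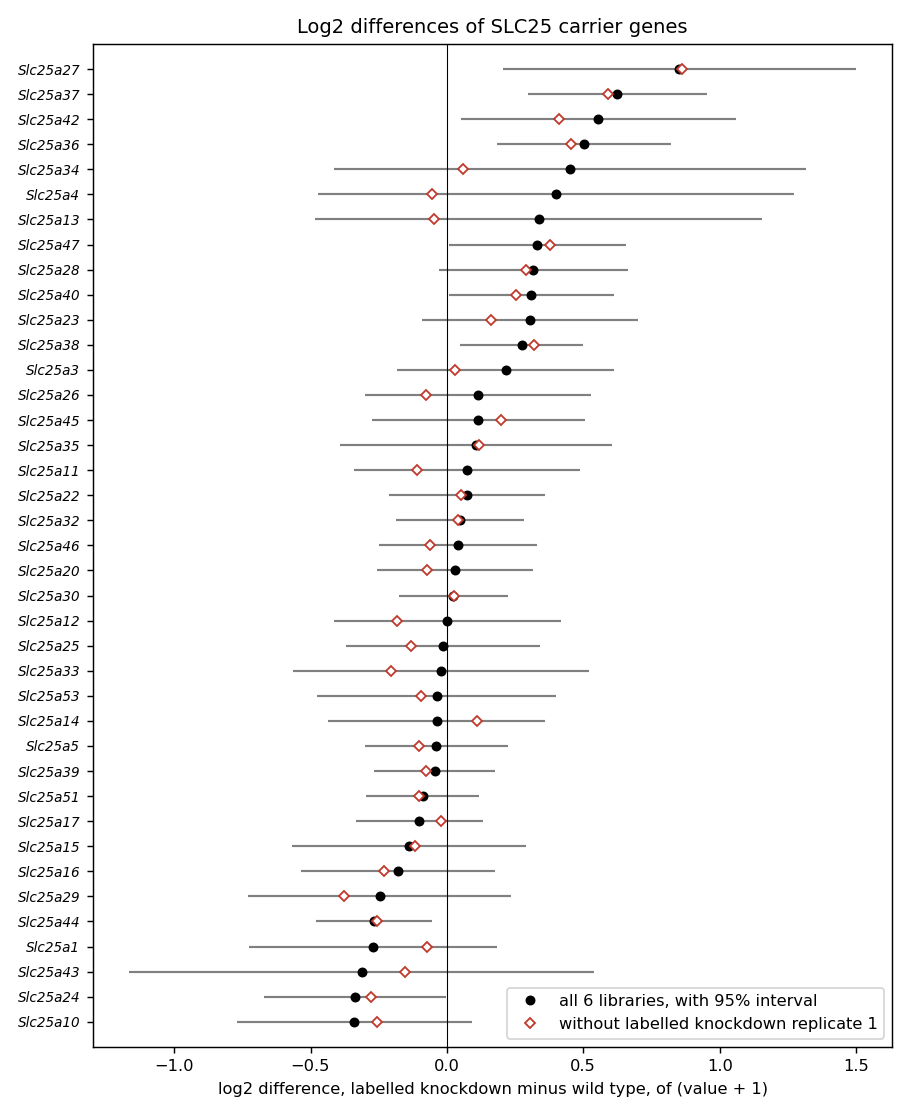
Log2 difference of (value + 1), labelled knockdown minus wild type, for the tested SLC25 genes shown with 95% intervals (filled circles), and the same difference without labelled knockdown replicate 1 (open diamonds). The intervals lie above 0 for 7 genes (Slc25a27, Slc25a37, Slc25a42, Slc25a36, Slc25a47, Slc25a40 and Slc25a38) and below 0 for Slc25a24 and Slc25a44, none passing after adjustment, while Slc25a4, Slc25a13 and Slc25a34 move to near 0 when that library is left out.

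Slc25a4 encodes the ADP/ATP carrier of heart and skeletal muscle, which sends ATP out of mitochondria in exchange for ADP. It lies on the minus strand of chromosome 8, from 46206797 to 46211284 in mm10. Its values were 1737, 778 and 586 in the libraries labelled knockdown, against 763, 687 and 659 in wild type. Labelled knockdown replicate 1 was far above the other libraries, and the remaining libraries of that group lay just above and just below the wild-type range. The log2 difference was 0.40 (95% interval -0.47 to 1.27, limma adjusted p = 0.592), and it was -0.055 without labelled knockdown replicate 1. The heart muscle markers given above were highest in that same library. With a covariate for heart muscle content, the mean log2 deviation of those markers, the log2 difference of Slc25a4 was -0.26 (limma unadjusted p = 0.0964). The part of heart muscle content in the value of Slc25a4 was not tested.

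Slc25a5 encodes the more widely expressed ADP/ATP carrier, found in dividing and non-muscle cells as well, and lies on the X chromosome (plus strand, 36795651 to 36798807). It was at 374, 337 and 316 in the libraries labelled knockdown, against 376, 342 and 336 in wild type. The groups overlapped almost completely, and labelled knockdown replicate 1, so high for Slc25a4, was not above wild type (log2 difference -0.039, 95% interval -0.30 to 0.22, limma adjusted p = 0.873). The ratio of Slc25a4 to Slc25a5 within a library does not change when a library is rescaled by a single factor. It was 4.65, 2.31 and 1.85 in the libraries labelled knockdown, against 2.03, 2.01 and 1.96 in wild type. Wild-type libraries were nearly identical in this ratio, and the libraries labelled knockdown lay on both sides of them. Both genes have processed pseudogenes in mammals, and how reads matching several copies were counted is not given in the sources used here.

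Slc25a3 encodes the phosphate carrier, which supplies phosphate for ATP synthesis and also carries copper. It was at 347, 248 and 223 in the libraries labelled knockdown, against 235, 234 and 222 in wild type (log2 difference 0.22, 95% interval -0.18 to 0.61, limma adjusted p = 0.534). Again only labelled knockdown replicate 1 stood clear of the other libraries, and without it the log2 difference was 0.028.

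The ATP-Mg/phosphate carriers, which are regulated by calcium and set the adenine nucleotide pool of the matrix, had values in both directions. Slc25a23 was at 17.3, 14.4 and 11.0 in the libraries labelled knockdown, against 10.7, 10.3 and 12.5 in wild type. Slc25a24 was at 29.4, 34.6 and 31.9 in the libraries labelled knockdown, against 41.1, 33.8 and 48.1 in wild type. Both genes overlapped between the groups, by 1 library each, and neither passed (log2 differences 0.30, SE 0.17, and -0.34, SE 0.14; limma adjusted p = 0.402 and 0.332). The ratio of Slc25a23 to Slc25a24 did not overlap, at 0.588, 0.417 and 0.344 in the libraries labelled knockdown, against 0.261, 0.304 and 0.261 in wild type. Slc25a25, the remaining member of this group, lay within 7.68 to 11.5 in the libraries labelled knockdown, a range that held all 3 wild-type libraries.

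The malate-aspartate shuttle brings reducing power from the cytosol into mitochondria. Slc25a11, its oxoglutarate/malate carrier, was at 151.5, 115.5 and 91.8 in the libraries labelled knockdown, against 115.3, 105.2 and 113.5 in wild type. Its log2 difference of 0.074 (95% interval -0.34 to 0.49) became -0.11 without labelled knockdown replicate 1. The aspartate/glutamate carrier Slc25a12, which predominates in heart and brain, was between 11.97 and 18.4 in the libraries labelled knockdown and between 12.2 and 15.3 in wild type. Its paralogue Slc25a13, the form known from liver, was at 25.1, 14.4 and 7.98 in the libraries labelled knockdown, against 10.8, 10.3 and 12.5 in wild type. It is named because of its wide range, a choice made after its values were seen, and its log2 difference went to -0.046 without labelled knockdown replicate 1, against 0.34 with it. Slc25a12 over Slc25a13 was 0.734, 0.866 and 1.50 in the libraries labelled knockdown, against 1.36, 1.18 and 1.23 in wild type, and the libraries labelled knockdown again lay on both sides. The glutamate carrier Slc25a22 stayed between 7.69 and 9.98 in all 6 libraries.

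Slc25a34, a carrier whose substrate is not firmly known, behaved in the same way and is also named after its values were seen. It was at 19.3, 10.6 and 5.99 in the libraries labelled knockdown, against 5.85, 8.49 and 8.87 in wild type. Slc25a4, Slc25a13 and Slc25a34 were the 3 members for which labelled knockdown replicate 1 exceeded every other library by more than 0.5 on the log2 scale, 7.5% of the members against 5.89% of all genes. That library was the highest of the 6 for 15 members (37.5%), against 25.8% of all genes, and the lowest for 5 members (12.5%), against 28.2%. The part of heart muscle content in these values was not tested. The covariate comes from the same libraries, at 1.341, 0.238 and -0.465 in those labelled knockdown, against -0.341, -0.362 and -0.411 in wild type. It thus mostly sets labelled knockdown replicate 1 apart, and the covariate fit cannot separate muscle content from other features of that library.

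**Figure D3:**
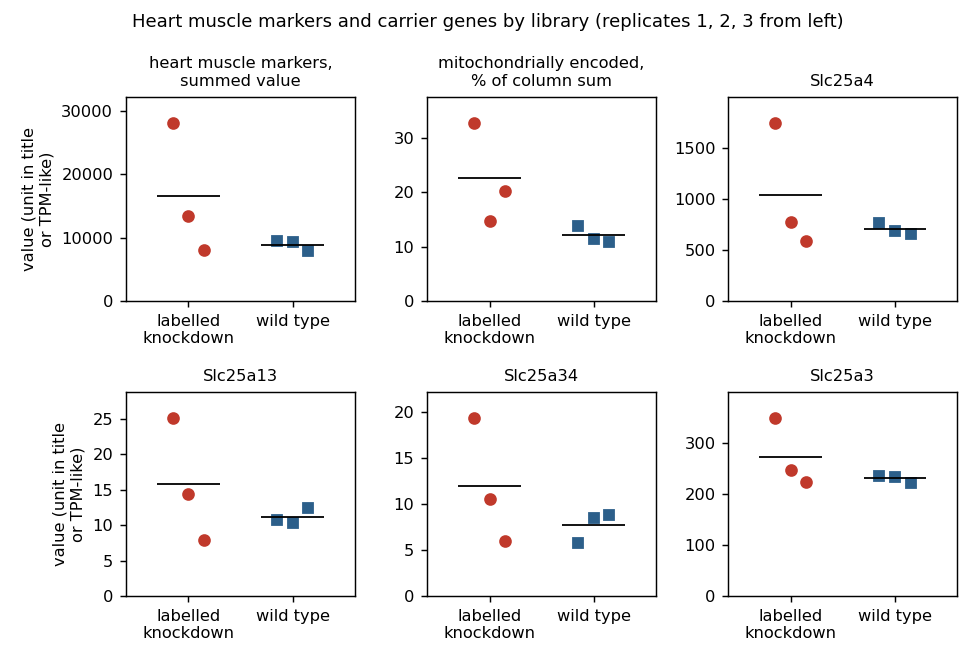
Summed value of 12 heart muscle markers, percent of the column sum taken by mitochondrially encoded genes, and TPM-like values of 4 carrier genes; each point is a library and each line a group mean (n = 3). In every panel the highest point is labelled knockdown replicate 1, and for the 4 carriers the other 2 libraries labelled knockdown lie within or nearer to the wild-type range.

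The citrate carrier Slc25a1 and the dicarboxylate carrier Slc25a10 feed carbon from mitochondria into the cytosol, where citrate is used for lipid synthesis. Slc25a1 was at 32.9, 43.3 and 57.9 in the libraries labelled knockdown, against 48.8, 56.3 and 53.5 in wild type (log2 difference -0.27, 95% interval -0.73 to 0.18, limma adjusted p = 0.501). Slc25a10 was at 14.01, 13.5 and 20.96 in the libraries labelled knockdown, against 19.5, 23.5 and 18.2 in wild type (log2 difference -0.34, 95% interval -0.77 to 0.093, limma adjusted p = 0.395). For both genes replicates 1 and 2 of the labelled knockdown group were below every wild-type library, and replicate 3 was inside or above the wild-type range. The adipocyte marker score, the mean log2 deviation of 7 tested markers, was -2.86, -2.93 and 2.08 in the libraries labelled knockdown, against 0.61, 1.96 and 1.13 in wild type. This score was low in the same 2 libraries. The summed value of the 8 adipocyte markers was 1037, 230 and 2042 in the libraries labelled knockdown, against 838, 1742 and 1002 in wild type. By sum, labelled knockdown replicate 1 was inside the wild-type range. Of the 7 tested markers, 6 were lower and 1 was higher. The adipocyte markers Plin1, Cidec, Lep and Retn were at 0 in at least 1 library. The part of fat in the 2 carrier values was not tested.

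Iron and heme carriers held the member with the smallest p. Slc25a37, mitoferrin 1, imports iron into mitochondria and is known from red cell precursors. It lies on the minus strand of chromosome 14, from 69241848 to 69285112 in mm10. It was at 19.5, 17.4 and 18.96 in the libraries labelled knockdown, against 11.7, 14.1 and 9.72 in wild type, so that every library labelled knockdown was above every wild-type library. The means were 18.6 ± 1.11 (SD, n = 3) in the libraries labelled knockdown and 11.8 ± 2.18 (SD, n = 3) in wild type. The log2 difference was 0.63 (95% interval 0.30 to 0.95), but the limma adjusted p of 0.296 did not pass, and it ranged from 0.50 to 0.75 when any 1 library was left out. Divided by each library's step and rounded, called whole steps below, which also brings the libraries close to a common sum, it was at 17, 18 and 19 in the libraries labelled knockdown, against 12, 15 and 11 in wild type.

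The erythroid markers (7 of 8 in the table, of which some, Slc4a1 among them, were at 0 in at least 1 library) summed to 2581, 346 and 1040 in the libraries labelled knockdown, against 669, 324 and 252 in wild type. In labelled knockdown replicate 2 they were inside the wild-type range, while Slc25a37 in that library, 17.4, was above the wild-type maximum of 14.1. The 5 erythroid markers tested were all higher, with a median log2 difference of 1.25, or 0.58 without labelled knockdown replicate 1, and their part in the value of Slc25a37 was not tested. The heme enzyme gene Alas2 was at 16.7, 2.83 and 9.98 in the libraries labelled knockdown, against 6.84, 3.69 and 3.45 in wild type.

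Slc25a28, mitoferrin 2, is the iron carrier of non-erythroid cells. It was at 20.7, 17.3 and 21.96 in the libraries labelled knockdown, against 15.6, 18.8 and 13.4 in wild type, and the groups overlapped by 1 library (log2 difference 0.32, 95% interval -0.030 to 0.66, limma adjusted p = 0.352). The ratio of Slc25a28 to Slc25a37 was 1.06, 0.999 and 1.16 in the libraries labelled knockdown, against 1.33, 1.34 and 1.38 in wild type, without overlap.

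Slc25a38, the glycine carrier that supplies the first step of heme synthesis, is on chromosome 9 (plus strand, 120110374 to 120124504). It was at 23.2, 25.1 and 25.95 in the libraries labelled knockdown, against 20.5, 21.6 and 18.8 in wild type. The groups did not overlap on the deposited scale (log2 difference 0.27, 95% interval 0.049 to 0.50, limma adjusted p = 0.302). In whole steps they did, at 20, 26 and 26 in the libraries labelled knockdown, against 21, 23 and 21 in wild type.

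The glutathione carriers Slc25a39 and Slc25a40 bring glutathione into mitochondria. Slc25a39 was at 104, 95.3 and 99.8 in the libraries labelled knockdown, against 110.4, 103 and 95.6 in wild type (log2 difference -0.044, 95% interval -0.27 to 0.18, limma adjusted p = 0.832). Slc25a40 was at 11.6, 11.6 and 8.98 in the libraries labelled knockdown, against 7.81, 8.45 and 8.95 in wild type. The groups for Slc25a40 were separated by far less than 1 rounding step (log2 difference 0.31, 95% interval 0.007 to 0.61, limma adjusted p = 0.331).

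Carriers of nucleotides and cofactors were mixed, with 5 of 9 tested members higher and 4 lower. Slc25a36, which carries pyrimidine nucleotides, lies on the minus strand of chromosome 9, from 97074961 to 97111157. It was at 49.6, 49.2 and 40.9 in the libraries labelled knockdown, against 29.2, 38.5 and 30.4 in wild type. The groups did not overlap (log2 difference 0.50, 95% interval 0.18 to 0.82, limma adjusted p = 0.296), and in whole steps the lowest library labelled knockdown and the highest wild-type library were equal, at 41. Its paralogue Slc25a33, at 6.89, 3.82 and 4.99 in the libraries labelled knockdown and at 3.89, 5.64 and 6.34 in wild type, showed no such separation.

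Slc25a42, which carries coenzyme A, was at 6.84, 5.79 and 3.99 in the libraries labelled knockdown, against 3.90, 3.74 and 2.60 in wild type. The gap between the groups, 3.99 against 3.90, was far below 1 step (log2 difference 0.56, SE 0.21, limma adjusted p = 0.316), and without labelled knockdown replicate 1 the log2 difference was 0.41. Slc25a42 over Slc25a16, another carrier linked to coenzyme A, was 0.451, 0.376 and 0.333 in the libraries labelled knockdown, against 0.286, 0.234 and 0.137 in wild type, without overlap. Slc25a51, the NAD carrier, was at 44.2, 45.3 and 40.9 in the libraries labelled knockdown, against 45.9, 44.1 and 48.8 in wild type (95% interval of the log2 difference -0.30 to 0.12). Slc25a17, a peroxisomal carrier of cofactors, was at 47.8, 57.8 and 54.9 in the libraries labelled knockdown, against 59.6, 56.3 and 55.97 in wild type (95% interval -0.34 to 0.13). Slc25a16, Slc25a26 and Slc25a32 had means from 8.25 to 15.2 over the 6 libraries and overlapped between the groups.

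Among carriers of carnitine and amino acids, Slc25a20, which exchanges acylcarnitine for carnitine so that fatty acids can be oxidised, was at 40.5, 35.6 and 29.9 in the libraries labelled knockdown, against 35.2, 32.9 and 35.1 in wild type. The libraries labelled knockdown lay on both sides of wild type (log2 difference 0.029, 95% interval -0.26 to 0.32, limma adjusted p = 0.918). Slc25a44, which carries branched-chain amino acids, lies on the minus strand of chromosome 3, from 88410498 to 88425139. It was at 12.9, 13.5 and 13.0 in the libraries labelled knockdown, against 16.6, 15.03 and 16.3 in wild type. It was the only member that was lower without overlap on the deposited scale (log2 difference -0.27, 95% interval -0.48 to -0.056, limma adjusted p = 0.300), and in whole steps the groups were still apart, at 11, 14 and 13 in the libraries labelled knockdown and at 17, 16 and 18 in wild type. Macrophage markers (12 of 12 in the table, none at 0) were lower as well, summing to 4022, 7976 and 6819 in the libraries labelled knockdown, against 11410, 8616 and 8603 in wild type. So were neutrophil and dividing cell markers and most fibroblast and adipocyte markers, given below. The part of any of these lists in the value of Slc25a44 was not tested. Slc25a47 was at 3.49, 3.86 and 3.99 in the libraries labelled knockdown, against 2.92, 2.79 and 2.67 in wild type. In whole steps this was 3, 4 and 4 in the libraries labelled knockdown and 3, 3 and 3 in wild type. Slc25a15, the ornithine carrier, Slc25a29, which carries basic amino acids, and Slc25a45 overlapped between the groups.

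Of the carriers that resemble uncoupling proteins, Slc25a27, also called UCP4 and known from neurons, was at 8.04, 9.68 and 6.99 in the libraries labelled knockdown, against 3.88, 6.57 and 2.55 in wild type. Its log2 difference of 0.85 (SE 0.28, limma adjusted p = 0.299) was the largest among the 40 members, yet the nearest libraries, 6.99 and 6.57, were less than 1 step apart and equal at 7 in whole steps. Slc25a14 and Slc25a30 overlapped between the groups, Slc25a30 staying between 19.96 and 22.2 in all 6 libraries. Slc25a46, an outer membrane protein of the family with a part in mitochondrial shape, was at 32.4, 26.9 and 24.95 in the libraries labelled knockdown, against 26.4, 25.4 and 29.8 in wild type (95% interval of the log2 difference -0.25 to 0.33). Slc25a35, Slc25a43 and Slc25a53 had means under 5 and overlapped.

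**Figure D4:**
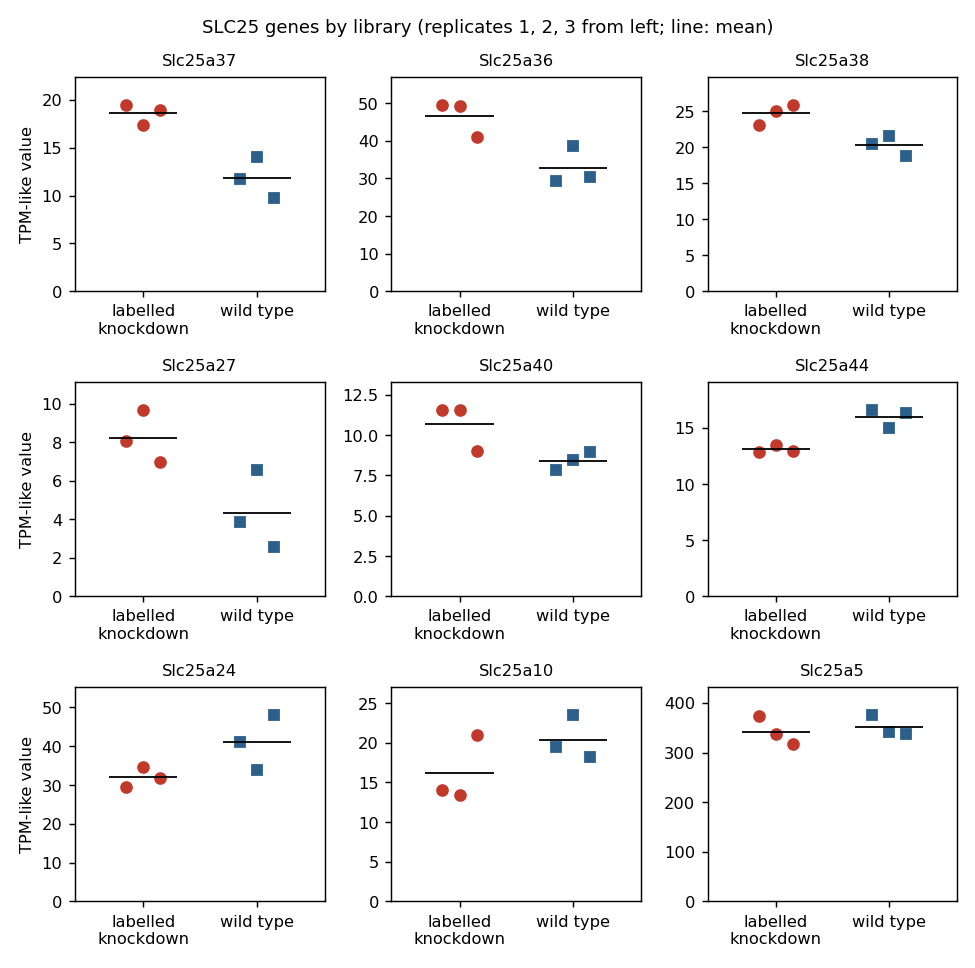
TPM-like values of 9 SLC25 genes in each library labelled Itih5 knockdown (circles, left) and each wild-type library (squares, right), with the group mean as a line (n = 3). The groups are apart for Slc25a37, Slc25a36, Slc25a38, Slc25a27, Slc25a40 and Slc25a44 and overlap for Slc25a24, Slc25a10 and Slc25a5; none passed the test.

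Which members were free of overlap depended on the scaling between libraries. Rescaling each library to the same sum moved the median log2 difference of all genes to -0.13, against 0.005, and that of the members to -0.09, with 15 members higher and 25 lower, against 24 and 16 on the deposited scale and 29 and 11 with mitochondrially encoded genes left out of the sum. Relative to all genes the members' median was 0.04 higher on the deposited scale and 0.04 higher at the same sum. At the same sum 3 members were higher without overlap (Slc25a37, Slc25a42 and Slc25a47, against 5.93% of all genes) and 5 were lower (Slc25a5, Slc25a24, Slc25a39, Slc25a44 and Slc25a51, against 17.1% of all genes). With mitochondrially encoded genes left out of the sum, the same 8 members as on the deposited scale did not overlap, against 24.8% of all genes (7 higher, against 17.9%, and 1 lower, against 6.9%). In whole steps only Slc25a37 was higher without overlap, against 2.91% of all genes, and Slc25a5, Slc25a39 and Slc25a44 were lower, against 15% of all genes. The remaining rescaling divided each library by its median ratio to the mean of each gene over the libraries. It left 6 members higher without overlap, against 11.9% of all genes, and 1 lower, against 11.2%. Slc25a37 and Slc25a44 were free of overlap on the deposited scale, in whole steps and under the 3 rescalings run. The share of all genes free of overlap in every one of these settings was not computed, so this is given as a description only.

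Ratios of 2 carriers within a library do not change when a library is rescaled by a single factor. Whether the unstated adjustment of the deposited values was such a factor is not known. Of 10 pairs listed, 9 had both genes in the table. Groups did not overlap for 3 of the 9 ratios, those of Slc25a23 to Slc25a24, Slc25a28 to Slc25a37 and Slc25a42 to Slc25a16. Each had an exact two-sided permutation p of 0.1, the smallest possible here, and 0.3 after Benjamini-Hochberg adjustment over the 9. The pairs were chosen with earlier results of these data known, and no share over other gene pairs was computed. The differences in mean log2 ratio, labelled knockdown minus wild type, were 0.67, -0.33 and 0.88, and they were 0.46, -0.33 and 0.76 without labelled knockdown replicate 1. The ratio of Slc25a36 to Slc25a33 (difference 0.54), of Slc25a39 to Slc25a40 (-0.39), of Slc25a23 to Slc25a25 (0.34) and of Slc25a11 to Slc25a10 (0.43) overlapped between the groups.

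**Figure D5:**
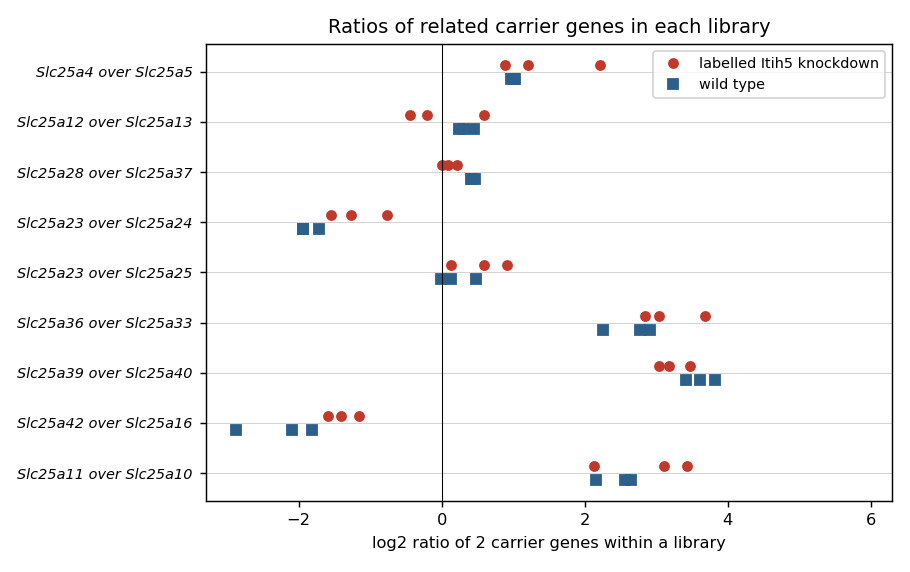
Log2 ratio of 2 related carrier genes within each library labelled Itih5 knockdown (circles) and each wild-type library (squares), for 9 pairs. The groups are apart for Slc25a28 over Slc25a37, Slc25a23 over Slc25a24 and Slc25a42 over Slc25a16, and the spread of the libraries labelled knockdown is wide for Slc25a4 over Slc25a5, from 0.89 to 2.22, against 0.97 to 1.02 in wild type.

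Sequence upstream of the start was available from RefSeq (GRCm38.p6, the build also called mm10) for 32 of the 41 members. On the deposited scale, members higher without overlap, with a mean of at least 5 and such an entry, were Slc25a36, Slc25a38 and Slc25a40. Slc25a5 is shown beside them as an abundant member with closely overlapping groups on that scale. At the same sum and in whole steps the groups were not apart for Slc25a36, Slc25a38 and Slc25a40, and Slc25a5 was lower without overlap. The stretches are the parts of the 250 bases before the RefSeq start that lie outside exons annotated by GENCODE, whose gene starts, given above, can differ from those of RefSeq. They are chr9:97111158-97111291 on the minus strand for Slc25a36, chr9:120110132-120110373 on the plus strand for Slc25a38, chr5:8422717-8422837 on the plus strand for Slc25a40 and chrX:36795347-36795596 on the plus strand for Slc25a5. Capitals mark a match, on either strand, to 1 of 5 motifs searched, and a stretch in lower case holds none.
Slc25a36: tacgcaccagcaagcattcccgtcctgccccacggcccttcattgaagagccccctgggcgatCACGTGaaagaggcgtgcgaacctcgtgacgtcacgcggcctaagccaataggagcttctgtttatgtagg
Slc25a38: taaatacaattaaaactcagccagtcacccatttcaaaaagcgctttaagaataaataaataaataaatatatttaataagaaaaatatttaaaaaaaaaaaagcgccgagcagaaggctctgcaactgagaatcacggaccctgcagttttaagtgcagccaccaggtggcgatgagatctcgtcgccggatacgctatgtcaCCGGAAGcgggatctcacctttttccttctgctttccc
Slc25a40: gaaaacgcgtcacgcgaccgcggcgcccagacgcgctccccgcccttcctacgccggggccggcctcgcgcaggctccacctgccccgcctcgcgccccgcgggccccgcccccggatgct
Slc25a5: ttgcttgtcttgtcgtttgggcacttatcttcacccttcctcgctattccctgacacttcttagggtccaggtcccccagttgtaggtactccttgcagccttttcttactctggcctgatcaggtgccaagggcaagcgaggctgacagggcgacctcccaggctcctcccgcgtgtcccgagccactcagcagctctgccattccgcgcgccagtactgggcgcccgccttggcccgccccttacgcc
The capitals in Slc25a36 are an E-box (CACGTG), and those in Slc25a38 an ETS motif (CCGGAAG). Over the 41 upstream windows of the members with entries, 8 held the E-box (19.5%, against 6.02% of all 32851 windows) and 5 the ETS motif (12.2%, against 6.91%). The NRF1 motif (GCGCA, any base, then GCGC) was in 2 (4.88%, against 3.74%), and neither the ERR motif (TNAAGGTCA, 1.14% of all windows) nor TATAAA (12.4% of all) was found in these windows. The median GC content was 58.0% in members' windows and 52.4% in all. These matches describe letters only, and several windows belong to the same gene.

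Genes that work beside the carriers gave few differences, and none passed after adjustment. Of the 5 family members with other symbols, Ucp2, the uncoupling protein gene of immune and other cells, was at 144, 172 and 198 in the libraries labelled knockdown, against 240.3, 223 and 183 in wild type (log2 difference -0.33, SE 0.16). Ucp3, the muscle form, was at 8.87, 0.924 and 2.00 in the libraries labelled knockdown, against 1.95, 2.83 and 1.72 in wild type, high in labelled knockdown replicate 1 alone. The pyruvate carrier subunit gene Mpc1 was at 68.9, 47.2 and 42.9 in the libraries labelled knockdown, against 40.04, 37.5 and 38.5 in wild type, without overlap (log2 difference 0.42, SE 0.17, limma adjusted p = 0.331). Mpc2 was at 72.2, 42.3 and 37.9 in the libraries labelled knockdown, against 37.1, 39.4 and 38.5 in wild type.

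The carrier import machinery, which inserts SLC25 proteins into the inner membrane, had 5 of 13 genes higher and 8 lower, with a median log2 difference of -0.041. Timm9, a small chaperone that guides carriers across the space between the membranes, was at 17.2, 15.4 and 13.97 in the libraries labelled knockdown, against 10.7, 11.2 and 9.76 in wild type (log2 difference 0.51, SE 0.11, limma adjusted p = 0.296). Tomm20, an import receptor gene, was at 40.8, 43.3 and 38.9 in the libraries labelled knockdown, against 48.9, 44.2 and 48.8 in wild type. Of 10 mitochondrial iron and heme genes, 6 were higher and 4 lower. Ppox, a heme synthesis enzyme gene, was at 18.4, 17.4 and 19.96 in the libraries labelled knockdown, against 12.7, 15.9 and 11.6 in wild type (log2 difference 0.45, SE 0.13, limma adjusted p = 0.296). Of 7 calcium uniporter genes 4 were higher and 3 lower, and Mcub, the dampening subunit, was at 20.2, 29.9 and 29.9 in the libraries labelled knockdown, against 42.04, 35.7 and 37.2 in wild type (log2 difference -0.53, SE 0.17, limma adjusted p = 0.298).

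Carnitine shuttle genes were higher for 4 of 5 (median 0.17), the malate-aspartate and citrate enzymes for 6 of 8 (median 0.19) and the creatine and adenylate kinases for 5 of 6 (median 0.13). Without labelled knockdown replicate 1 these medians were 0.049, -0.089 and 0.025. Cpt1b, the muscle form of the enzyme that makes acylcarnitine for Slc25a20, was at 136, 46.1 and 39.9 in the libraries labelled knockdown, against 32.2, 33.8 and 29.04 in wild type. The outer membrane channels (3 of 3 higher, median 0.054), the sideroflexins (2 of 5 higher, median -0.013) and the regulators of mitochondrial genes (5 of 7 tested higher, median 0.061) held no member that passed. Macrophage markers were lower for 12 of 12 (median -0.571), neutrophil markers for 7 of 7 tested (-0.689), fibroblast markers for 7 of 10 (-0.19) and dividing cell markers for 10 of 10 (-0.193). Without labelled knockdown replicate 1 these medians were -0.291, -0.465, -0.051 and -0.212. Endothelial markers were higher for 8 of 8 (median 0.445), skeletal muscle markers for 5 of 5 tested (0.515) and brown adipocyte markers for 4 of 4 tested (0.489), and without that library these medians were 0.178, 0.483 and 0.202. The endothelial sum of labelled knockdown replicate 2, 631, was the lowest of the 6. Ucp1, of the brown adipocyte list, was at 0 in at least 1 library and was not tested. The brown adipocyte sum, 730, 311 and 183 in the libraries labelled knockdown, was mostly Cox8b, at 690, 291 and 170. In wild type the sum was 151, 206 and 178, and Cox8b was at 134, 190 and 162. This sum, mainly the value of 1 gene, was like the heart muscle sum highest in labelled knockdown replicate 1. Adipocyte markers were lower for 6 of 7 tested (median -2.888, or -1.932 without that library). The part of these marker lists in the carrier values was not tested.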

How the data were processed

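RNA was sequenced from 6 libraries of infarcted mouse myocardium, 3 labelled knockdown and 3 wild type. The authors deposited 1 table of scores for each gene and library, whose name describes TPM. The submitters' processing notes name mm10. Which aligner and quantifier the authors used, and how libraries were adjusted to each other, is not given in the sources used here. Columns sum to between 901558 and 1159651 over distinct symbols, and low values lie near whole multiples of a step for each library. No count test was therefore used, depth is unknown, and the test planned for TPM was kept.

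Where a symbol was repeated, only the row of highest mean entered (6 rows left out). Values were tested as log2(value + 1) for genes with a mean of at least 1, with limma 3.58.1 in R 4.3.3, a mean-dependent prior variance and the Benjamini-Hochberg adjusted p held to 0.05. Fold changes on this scale understate changes of low genes. Sums and ratios were compared by exact two-sided permutation tests. The fit was tested on simulated data. Coordinates come from GENCODE M21.

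The members, gene lists and carrier pairs were chosen with earlier results of these data known. Values in every library are given for members among the 12 highest means, the 12 smallest unadjusted p, or with groups that do not overlap and a mean of at least 5, and up to 3 genes of a list with the smallest p, with a few more named by function. Alternatives changed the pseudocount (0.5 or 5), the filter, the scaling, the trend, the pairing, a heart muscle covariate and each library in turn. Replicate numbers were not taken to pair libraries. Values of 1 member, which enters the counts and sums, are not reported here.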

Additional observations from a re-analysis of the deposited data

How the results depend on the processing

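No SLC25 gene passed the test under any of the 16 alternatives run. Of the 22 members that the naming rule chose, 14 kept their direction in each of the 16 in which they were tested, and 8 reversed in at least 1. Of the members printed outside that rule, Slc25a13 reversed without labelled knockdown replicate 1 (-0.046) and with the heart muscle covariate (-0.28), Slc25a34 with that covariate (-0.165) and Slc25a33 without labelled knockdown replicate 2 (0.149), among others. The median log2 difference of the members, 0.045, became -0.09 with every library at the same sum and -0.09 with the heart muscle covariate. It ranged from -0.051 to 0.09 when any 1 library was left out, and the cause was not tested. Relative to the median of all genes it was 0.04 on the deposited scale and 0.04 at the same sum. It was -0.094 with the covariate and -0.053 without labelled knockdown replicate 1, again relative to all genes. The log2 ratio of the summed level ranged from -0.028 to 0.408 over those omissions. Over all genes, 0 to 13 genes passed when 1 library was left out (13 without labelled knockdown replicate 3, 2 without wild-type replicate 2). With every library at the same sum, Slc25a11 was at -0.069, Slc25a20 at -0.111 and Slc25a46 at -0.098; with mitochondrially encoded genes left out of the sum, Slc25a5 was at 0.007 and Slc25a39 at 0.002. With the heart muscle covariate, Slc25a1 was at 0.051, Slc25a3 at -0.054, Slc25a4 at -0.260, Slc25a11 at -0.217, Slc25a20 at -0.140 and Slc25a46 at -0.107. Leaving out 1 library gave -0.055 to 0.728 for Slc25a4, -0.11 to 0.248 for Slc25a11, -0.072 to 0.14 for Slc25a20, -0.062 to 0.12 for Slc25a46, -0.104 to 0.016 for Slc25a5 and -0.097 to 0.006 for Slc25a39. In whole steps, which change the scaling and the rounding together, an alternative chosen after the data were seen, 4 members had groups that did not overlap (Slc25a5, Slc25a37, Slc25a39 and Slc25a44), against 8 on the deposited scale. Members with an unadjusted p under 0.05 numbered from 3 to 10, and the share of all genes moved as well, from 7.08% to 18.5%. There were 3 with the heart muscle covariate (7.96% of all genes) or without wild-type replicate 3 (7.37%), 4 at the same sum (13.2%) or without wild-type replicate 1 (7.08%), and 10 without labelled knockdown replicate 3 (18.5%). With the replicate number as a block there were 4 (12.9% of all genes), against 9 (14.8%), and 0 passed after adjustment. For the summed level, the mean log2 ratio of same-numbered libraries was 0.208. That is another measure than the log2 ratio of the group means, 0.25, so the 2 values do not show an effect of blocking. Deviations of same-numbered libraries correlated at 0.056, 0.061 and 0.14 across genes, only 1 of them over 0.1. As a hint from the data, not the design, 5 of 6 libraries correlated best with their own number, the exception being wild-type replicate 1. They were not treated as pairs. Pseudocount, filter and trend do not apply to sums and ratios and were not run for them. Rounding steps limit members with a mean under 5.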
